A study of Saccharomyces cerevisiae with 24 samples.

Results

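The genes described here are 10 genes of the pheromone response of budding yeast, from the G protein subunit at its start to the proteins that join mating cells at its end: GPA1, FUS3, STE12, KAR4, FAR1, AGA1, FUS1, FUS2, PRM1 and FIG1. They were taken by name, as every probe set that carried the name of 1 of these genes alone, which gave 12 probe sets for the 10 genes, out of 9275 tested probe sets of which 6504 carried a single gene name (5656 genes). FUS3 had 3 probe sets and each other gene had 1.

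The series holds 24 Affymetrix arrays of 12 haploid *Saccharomyces cerevisiae* strains, 2 biological replicates each, and asks whether deletions of duplicated ribosomal protein genes, paralogs included, have different effects on the transcriptome. Of the 11 deletion strains, 7 lack a gene of the large ribosomal subunit (rpl14a, and both copies of RPL7, RPL12 and RPL22: rpl7a, rpl7b, rpl12a, rpl12b, rpl22a, rpl22b) and 4 lack a gene of the small subunit (rps0a, rps0b, rps18a and rps18b). The wild type is BY4741, a laboratory strain of mating type a, and the deletions are described as isogenic with it. All strains grew as 50 mL cultures in rich YPD medium at 30 °C and were taken in early log phase. No pheromone or cell of the opposite mating type is named among the growth conditions, so the values are levels in vegetative cultures. Whether a deletion strain is 1 clone is not stated in the labels.

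In an a cell, the α-factor of a mating partner binds the receptor Ste2 and frees the Gβγ dimer from the Gα subunit Gpa1. The signal passes through a MAP kinase cascade on the scaffold Ste5 to the kinase Fus3, which activates the transcription factor Ste12. Ste12 then raises genes for arrest in G1, for agglutination and for cell and nuclear fusion, and it keeps many of them at a low basal level when no pheromone is present.

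Signals are given as quantile-normalized intensities on a linear scale. A difference is the log2 signal of the first-named strain minus that of the other, with its standard error (SE) from limma, and a difference was called when its adjusted p over all 9275 probe sets was under 0.05. A probe set whose signal exceeded the background of foreign-sequence controls on neither array of a strain had only an upper limit there, and its fold is then given as a bound. Deposited median signals ran between 36.3 and 61.4, backgrounds between 5.55 and 30.8, and the correlation of replicate arrays between 0.958 and 0.981. The highest background and the lowest replicate correlation belonged to rps0a, whose replicate 2 stood apart. The deleted gene itself had probe sets of its own in 7 of the 11 deletions, and 11 of these 12 probe sets were lower in the deletion, by between -9.69 and -2.89 on the log2 scale. The remaining probe set, for RPL7A in rpl7a, had a difference of 0.82 (adjusted p = 0.345). The deletions rpl12a, rpl12b, rps18a and rps18b had no probe set with the name of the deleted gene alone, so their labels were not checked in this way.

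Among the 10 genes, 5 differed in some strain and 5 did not pass any test in the main fit. In the limma F test for any difference among the 12 strains, AGA1 (adjusted p = 0.000796), FAR1 (0.000836), PRM1 (0.00165), FUS1 (0.00250) and FIG1 (0.00888) were called. That is 5 of 12 probe sets, where 11.4% of all probe sets were called. Because the 10 genes were chosen with earlier results of these data known, counts set beside such shares are descriptions and not tests. Against wild type, 10 of 132 tests were called, all of them lower in the deletion, in 4 of the 11 deletions. The deletion of RPL14A, which encodes a large subunit protein, accounted for 5 of them (1.46% of all probe sets were called lower in rpl14a), and the deletion of RPL7A for 3 (2.99% in rpl7a). AGA1 in rpl12b (0.604% called lower) and FIG1 in rpl22a (1.02%) were the other calls. These 11 comparisons share the 2 wild-type arrays. With the replicate number added to the fit, 6 of the 12 probe sets were called lower in rpl14a and 6 in rpl7a. In each of these strains the calls then went beyond these 5 genes. That fit also called 2 lower in rpl22a and 1 each in rpl12b, rps0b and rps18a. The 10 calls became 6 without wild-type replicate 1, 16 with median centring of the arrays in place of quantile normalization, and 0 when each fit held only the arrays of the strains compared.

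**Figure D1:**
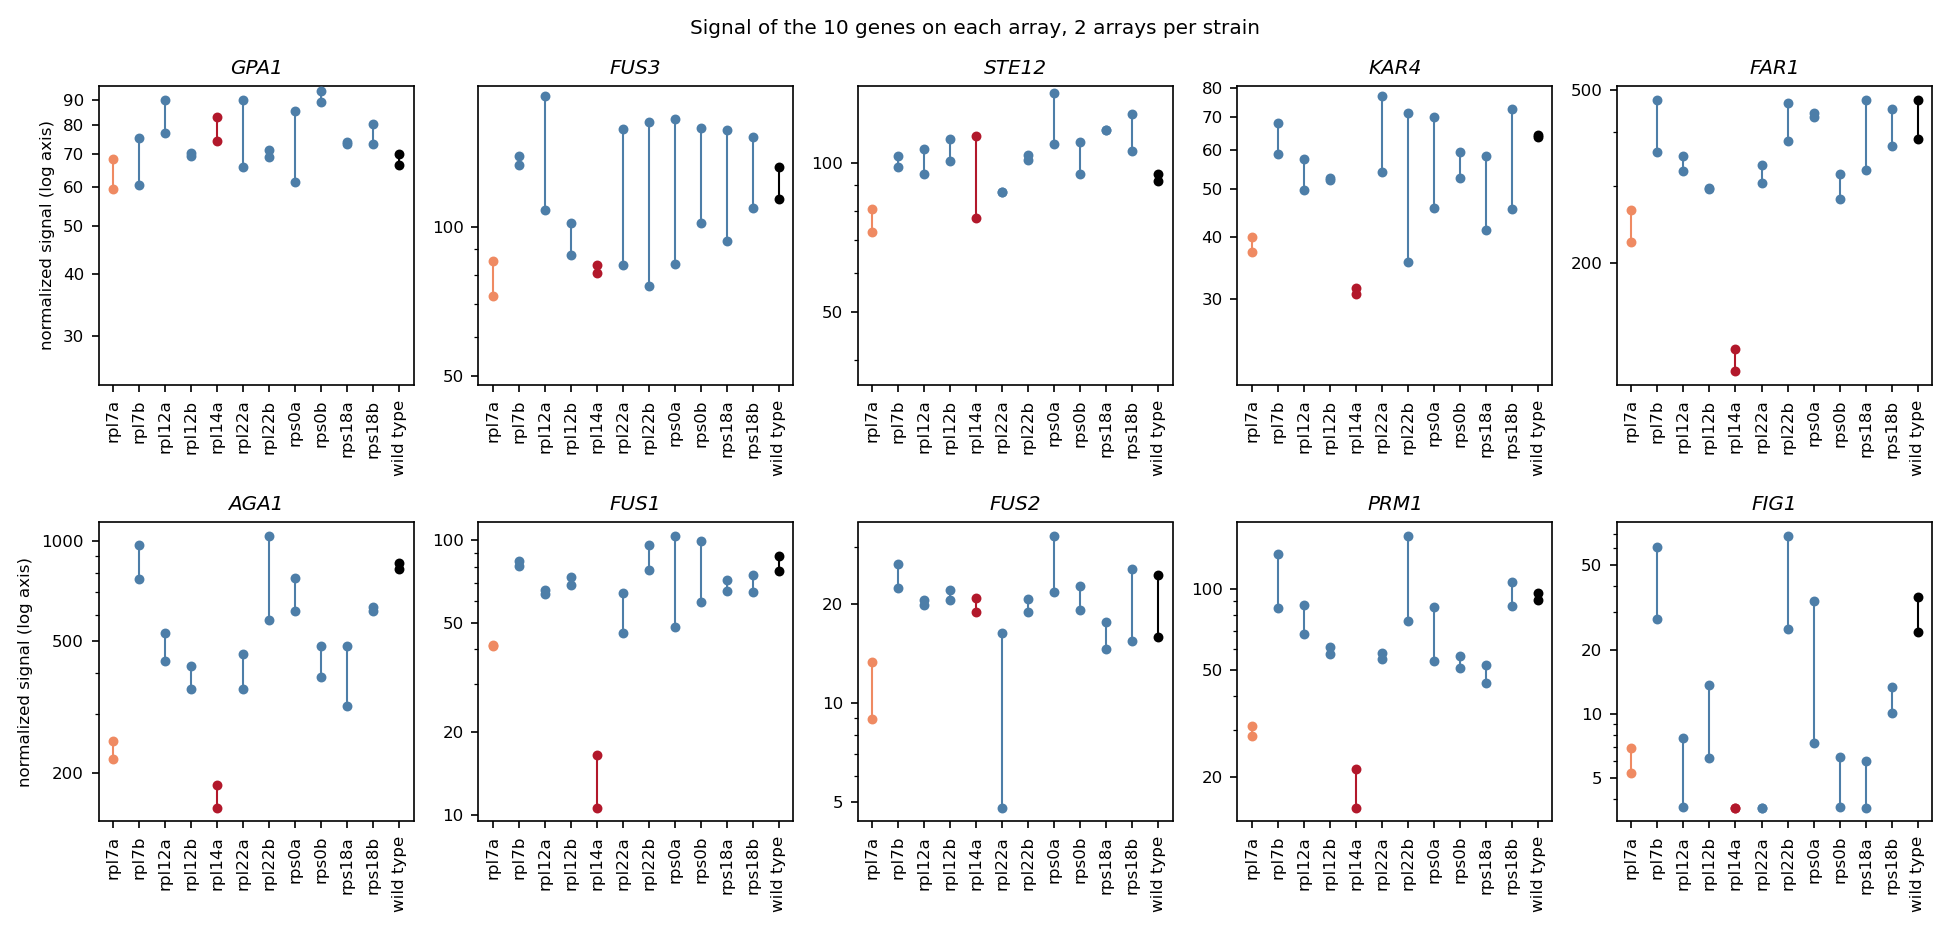
Normalized signal (linear units on a log axis, a range of its own for each gene) of the 10 genes on each of the 24 arrays; the 2 points of a strain are its 2 replicates, joined by a line, and FUS3 is shown by its brightest probe set. Red points are rpl14a, orange points rpl7a, black points wild type. For AGA1, FAR1, FUS1 and PRM1 both rpl14a points lie under all points of the other strains, while for GPA1 and STE12 they lie among the points of the other strains.

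The gene at the head of the pathway was not called in any strain. GPA1 (YHR005C, chromosome VIII) encodes the Gα subunit that holds the pathway off without pheromone. Its signal was 83.1 and 74.2 in rpl14a and 68.4 and 59.4 in rpl7a, against 66.5 and 69.9 in wild type. The other 9 deletions lay between 60.6 and 93.7. The strain means spanned 0.52 on the log2 scale. Both arrays of rpl14a, rpl12a, rps0b, rps18a and rps18b were above both wild-type arrays, which were closely spaced. The share of all probe sets that do so was not counted. The highest was rps0b with 93.7 and 89.2 (0.42 ± 0.18, adjusted p = 0.245), and none was called. The difference from wild type was 0.20 ± 0.18 in rpl14a (adjusted p = 0.676) and -0.10 ± 0.18 in rpl7a (0.859).

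FUS3 (YBL016W, chromosome II), the MAP kinase of the mating response, had 3 probe sets that did not carry equal weight. The brightest gave 83.9 and 80.5 in rpl14a and 85.5 and 72.7 in rpl7a, against 132 and 114 in wild type. Both deletions were under wild type on this probe set, but neither passed the test (-0.58 ± 0.43 in rpl14a, adjusted p = 0.612; -0.64 ± 0.43 in rpl7a, adjusted p = 0.479), and the replicates of most other deletions were far apart, as in rpl22b with 163 and 75.9. Replicate 1 was above replicate 2 on this probe set in 11 of 12 strains. The second probe set gave 57.7 and 47.2 in rpl14a and 38.7 and 22.1 in rpl7a, against 67.5 and 46.3 in wild type. On it rpl14a overlapped wild type (-0.10 ± 0.38, adjusted p = 0.980) and rpl7a lay below it (-0.93 ± 0.38, adjusted p = 0.193). The third was above background on 1 array of rps0a only and is not used further.

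STE12 (YHR084W, chromosome VIII), the transcription factor of the response, did not pass the test in any deletion either. Its signal was 113 and 77.3 in rpl14a and 80.6 and 72.5 in rpl7a, against 92.0 and 95.02 in wild type. The rpl14a arrays stood on both sides of wild type, with a difference of -0.00067 ± 0.17 (adjusted p = 0.999). The lowest strain mean was that of rpl7a, with a difference of -0.29 ± 0.17 (adjusted p = 0.387), and the highest that of rps0a, with 109 and 138 (0.39 ± 0.17, adjusted p = 0.379). The wild-type arrays were closely spaced. Both arrays of rpl7a and rpl22a lay below them, and those of rpl7b, rpl12b, rpl22b, rps0a, rps18a and rps18b above them. None of these differences was called, and the share of all probe sets that do not overlap wild type was not counted.

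KAR4 (YCL055W, chromosome III) encodes a factor that works with Ste12 on genes of nuclear fusion. Its signal was 30.7 and 31.7 in rpl14a and 37.4 and 40.0 in rpl7a, against 63.7 and 64.3 in wild type. Neither deletion overlapped wild type and rpl14a was the lowest strain. Both arrays of rpl12a, rpl12b, rps0b and rps18a were also below the wild-type arrays, which were closely spaced. How many of all probe sets do not overlap wild type was not counted. The test over all probe sets did not call them: the differences were -1.04 ± 0.31 in rpl14a (adjusted p = 0.0910) and -0.73 ± 0.31 in rpl7a (0.209). In the other 9 deletions KAR4 lay between 35.7 and 77.0, and several had widely spaced replicates, such as rpl22b with 71.3 and 35.7.

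FAR1 (YJL157C, chromosome X) encodes the inhibitor that arrests a responding cell in G1 and directs its growth towards the partner. Its signal was 113 and 127 in rpl14a and 223 and 265 in rpl7a, against 474 and 385 in wild type. These were the lowest strains of the series and neither overlapped another strain. FAR1 fell in both, in rpl14a (-1.83 ± 0.19, adjusted p = 0.000134) and in rpl7a (-0.81 ± 0.19, adjusted p = 0.0216). The call in rpl7a was lost in 5 of 33 alternative settings, among them leaving out wild-type replicate 1 (adjusted p = 0.188), rpl7a replicate 1 (0.156) or rpl7a replicate 2 (0.0510). Next above them came rpl12b with 296 and 297, rps0b with 281 and 320.4, rpl22a with 305 and 335 and rpl12a with 326 and 353, all below both wild-type arrays and none called (differences between -0.53 and -0.33). The signals of rpl7b (474 and 360.4), rpl22b (381 and 465), rps0a (433 and 442), rps18a (473 and 327) and rps18b (452 and 370.4) overlapped wild type. How many of all probe sets lie below both wild-type arrays in a strain was not counted.

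AGA1 (YNR044W, chromosome XIV), which encodes the cell-wall anchor of the agglutinin by which a cells adhere to α cells, was called lower in 3 deletions, more than any other of the 10 genes. Its signal was 157 and 184 in rpl14a and 220.4 and 249.6 in rpl7a, against 858 and 822 in wild type. These 4 arrays lay under all others of the series, and the gene fell in rpl14a (-2.31 ± 0.26, adjusted p = 0.000292) and in rpl7a (-1.84 ± 0.26, adjusted p = 0.00108). A middle group held rpl12b (421 and 359), rps18a (484 and 317), rpl22a (358 and 456), rps0b (388 and 481) and rpl12a (434 and 528), all under wild type. Of these only rpl12b was called (-1.11 ± 0.26, adjusted p = 0.0457), and that call was lost in 24 of 33 alternative settings, leaving out either wild-type array and either rpl12b array among them. The differences in rps18a (-1.10 ± 0.26, adjusted p = 0.0677), rpl22a (-1.06 ± 0.26, 0.0529) and rps0b (-0.96 ± 0.26, 0.0740) were of like size and missed the threshold, and that in rpl12a was -0.81 ± 0.26 (0.310). The third band was close to wild type: rps18b had 614 and 633, rps0a 775 and 613, rpl22b 1035 and 579 and rpl7b 971 and 767. Only rpl7b and rpl22b overlapped wild type there. All these strains were set against the same closely spaced wild-type arrays, and the share of all probe sets that do not overlap them was not counted. Over the mean of the 11 deletions AGA1 was -0.91 ± 0.20 (adjusted p = 0.0635), a comparison in which limma called 0 of the 12 probe sets and called 0.302% of all probe sets lower. An unadjusted p under 0.05 was found for 4 of the 12, all lower, and for 11.1% of all probe sets.

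PRM1 (YNL279W, chromosome XIV) encodes a membrane protein that acts when the plasma membranes of mating cells fuse. Its signal was 21.6 and 15.4 in rpl14a and 28.4 and 31.1 in rpl7a, against 91.5 and 96.4 in wild type. Again these 4 arrays lay under all others, and PRM1 fell in rpl14a (-2.36 ± 0.31, adjusted p = 0.000954) and in rpl7a (-1.66 ± 0.31, adjusted p = 0.00568). Next came rps18a at 44.9 and 52.3, rps0b at 51.0 and 56.6, rpl22a at 57.9 and 54.9 and rpl12b at 61.0 and 57.5, each under wild type and none called (differences between -0.96 and -0.67). Both arrays of rps0a (85.7 and 54.2) and of rpl12a (87.4 and 68.4) were also under wild type. The arrays of rps18b (107 and 86.5), rpl7b (134 and 85.4) and rpl22b (157 and 76.4) stood on both sides of it. As the wild-type arrays were closely spaced, lying under both is easily met, and the share of all probe sets that do so was not counted.

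FUS1 (YCL027W, chromosome III) encodes a surface protein needed for cell fusion and is a classic reporter of the pathway. Its signal was 16.6 and 10.6 in rpl14a and 41.2 and 41.6 in rpl7a, against 77.3 and 87.2 in wild type. FUS1 fell in rpl14a (-2.63 ± 0.32, adjusted p = 0.000479). In rpl7a both arrays were under all arrays outside rpl14a and the difference was -0.99 ± 0.32, which missed the threshold (adjusted p = 0.0872). This SE draws on the replicate spread of all strains, among them the widely spaced rps0a arrays (103 and 48.3). The other 9 deletions spanned 46.0 to 103, and their differences from wild type lay between -0.59 in rpl22a and 0.07 in rpl22b, none called. Both arrays of rpl12a, rpl12b, rpl22a, rps18a and rps18b lay below both wild-type arrays and above those of rpl7a. How many of all probe sets do not overlap wild type was not counted.

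FUS2 (YMR232W, chromosome XIII), whose product acts in cell fusion and in the joining of the nuclei, did not follow FUS1. Its signal was 19.0 and 20.9 in rpl14a and 13.4 and 8.97 in rpl7a, against 24.7 and 15.9 in wild type. The rpl14a arrays lay between those of wild type (0.01 ± 0.43, adjusted p = 0.999), and the rpl7a arrays below them (-0.86 ± 0.43, adjusted p = 0.301). The lowest strain was rpl22a, with 4.81 and 16.3 and a difference of -1.16 ± 0.43 (adjusted p = 0.201). This probe set was above background on 21 of 24 arrays.

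FIG1 (YBR040W, chromosome II) encodes a membrane protein of mating cells that takes part in calcium uptake and fusion, and it is strongly induced by pheromone. Its signal was 3.64 and 3.64 in rpl14a and again in rpl22a, which is the floor of the scale, against 24.4 and 35.3 in wild type. It was not well above background in 6 of the 12 strains, the other 4 being rpl7a (6.90 and 5.31), rpl12a (7.70 and 3.66), rps0b (6.27 and 3.65) and rps18a (3.64 and 6.01). Values at the floor have no order among themselves. FIG1 fell at least 2.94-fold in rpl14a (adjusted p = 0.0272) and at least 3.17-fold in rpl22a (adjusted p = 0.0335), both relative to wild type. The limits for strains that were not called were at least 2.81-fold in rpl7a (adjusted p = 0.0611), at least 3.001-fold in rps0b (0.0561), at least 2.60-fold in rps18a (0.0848) and at least 2.25-fold in rpl12a (0.199). The signal was 13.6 and 6.24 in rpl12b, 10.1 and 13.3 in rps18b, 34.0 and 7.32 in rps0a, 61.0 and 28.0 in rpl7b and 68.4 and 25.1 in rpl22b. Replicates of the last 3 of these strains differed widely, and rpl7b and rpl22b were the only deletions with an array above both wild-type arrays. Its call in rpl14a was lost in 6 of 32 alternative settings and its call in rpl22a in 7 of 32, and each of them was lost on leaving out either wild-type array or either array of the deletion (adjusted p between 0.107 and 0.149 in rpl14a and between 0.0912 and 0.177 in rpl22a).

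**Figure D2:**
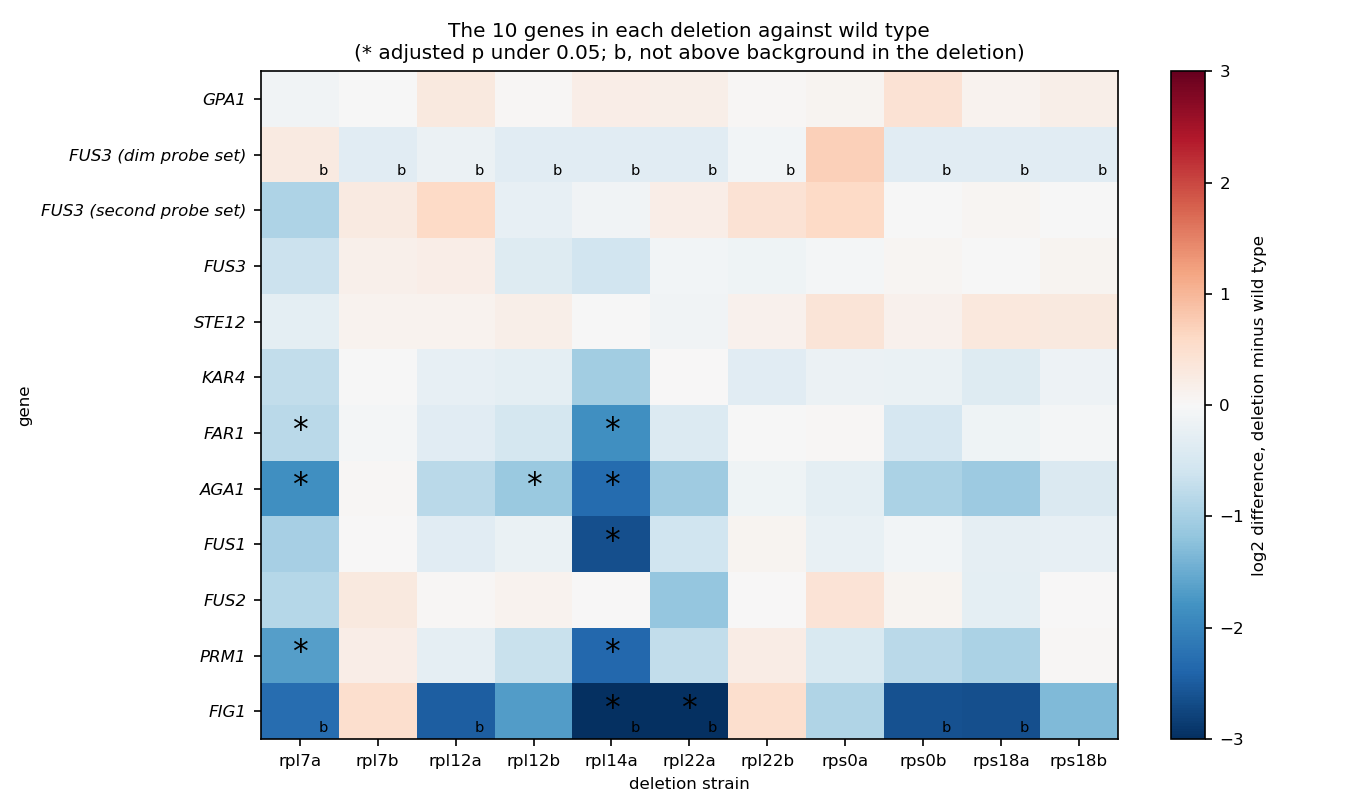
Log2 difference of each deletion from wild type (colour, deletion minus wild type, limited to 3 either way) for the 12 probe sets of the 10 genes, ordered by role from GPA1 at the top to FIG1 at the bottom. The 10 calls are all lower in the deletion, with 5 in rpl14a, 3 in rpl7a, 1 in rpl12b and 1 in rpl22a.

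In the remaining deletions none of the 12 probe sets was called by limma. The share of all probe sets called lower was 1.6% in rps0b, 0.442% in rps18a, 0.205% in rps0a, 0.183% in rpl12a, 0.173% in rps18b, 0.0216% in rpl7b and 0.0108% in rpl22b. An unadjusted p under 0.05 was found in rps0b for 5 of 12, of which 4 were lower (FIG1, AGA1, FAR1 and PRM1) and GPA1 was higher, where 16.1% of all probe sets had one. In rps18a there were 3 of 12, all lower (12.6% of all probe sets), and in rpl12a 2 of 12, both lower (8.59%). In rps0a there were 2 of 12, STE12 and a dim FUS3 probe set, both higher (11.8%). In rps18b (10.6%), rpl22b (4.31%) and rpl7b (2.67%) there were 0 of 12. The median difference of the 12 probe sets was -0.81 in rpl14a and -0.83 in rpl7a, beside medians of -0.0053 and -0.012 over all probe sets, and it lay between -0.38 in rpl22a and 0.07 in rpl7b in the other 9 deletions.

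Paralog deletions were set against each other, with the A copy first, since the series was designed to ask whether duplicated genes have different roles. Between rpl7a and rpl7b, 4 of 12 probe sets were called lower in rpl7a, where 2.34% of all probe sets were. AGA1 (-1.88 ± 0.26, adjusted p = 0.00104), PRM1 (-1.85 ± 0.31, adjusted p = 0.00320) and FAR1 (-0.77 ± 0.19, adjusted p = 0.0340) were lower in rpl7a, and FIG1 was at least 3.97-fold lower there (adjusted p = 0.0274). The call of FIG1 was lost in 9 of 32 alternative settings, among them leaving out any 1 of these 4 arrays (adjusted p between 0.0513 and 0.249), and that of FAR1 in 6 of 33, among them leaving out either rpl7a array or rpl7b replicate 1 (between 0.0782 and 0.315). Without rpl7b replicate 1 the call of PRM1 was lost as well (adjusted p = 0.0595). FUS1 had 41.2 and 41.6 in rpl7a against 80.6 and 84.2 in rpl7b, a difference of -0.99 ± 0.32 that was not called (adjusted p = 0.0985). Without rpl7a replicate 2 the number of calls over all pairs was 3, and without rpl7b replicate 1 it was 2, against 5 with all arrays. It was also 3 without normalization between arrays, with a higher floor, with the dimmest 25% of probe sets left out, and without the probe sets of chromosomes XVI, V and VIII. Between rpl22a and rpl22b the only call was FIG1, at least 4.48-fold lower in rpl22a (adjusted p = 0.0135), where 1.09% of all probe sets were called lower. It was lost in 5 of 32 alternative settings, among them leaving out either rpl22a array or rpl22b replicate 1 (adjusted p between 0.0617 and 0.0853). AGA1 (-0.94 ± 0.26, adjusted p = 0.0794) and PRM1 (-0.96 ± 0.31, adjusted p = 0.133) were not called in that pair.

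The other pairs gave no call by limma among the 12 probe sets. The share of all probe sets called lower was 1.1% between rpl12a and rpl12b, 0.0539% between rps0a and rps0b and 0% between rps18a and rps18b. An unadjusted p under 0.05 was found for 1 of 12 between rpl12a and rpl12b, higher in rpl12a, where 11.8% of all probe sets had one. Between rps0a and rps0b there were 4 of 12 (FAR1, AGA1, FIG1 and a dim FUS3 probe set), all higher in rps0a (8.45% of all probe sets), and between rps18a and rps18b 2 of 12 (AGA1 and PRM1), both lower in rps18a (4.81%). Large subunit deletions set against small subunit deletions, with the strain as the unit and 7 strains against 4, also gave 0 of 12 calls, where 3.32% of all probe sets were called. The only unadjusted p under 0.05 was that of STE12 (-0.26 ± 0.10, adjusted p = 0.195), 1 of 12 where 17.4% of all probe sets had one. AGA1 differed by -0.34 ± 0.42 there (adjusted p = 0.752).

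The 10 genes were then placed among 64 genes of the pathway, all measured, of which 54 are not among the 10. That list too was chosen with earlier results of these data known, so its counts are descriptions. In rpl14a 14 of the 64 were lower and 0 higher, with a median difference of -0.34 beside -0.026 over 5656 genes, of which 1.08% were called lower. In rpl7a 8 were lower and 2 higher, with a median of -0.19 beside -0.010, and 2.09% of genes were called lower. In rpl22a 2 were lower (1.2% of genes), and in rpl12b 1 (0.743%). Leaving the 10 genes aside, 9 of 54 were lower in rpl14a and 5 lower and 2 higher in rpl7a. No gene of the 64 was called in the other 7 deletions. Unadjusted p-values under 0.05 were found there for 13 of 64 in rps0b (17.6% of 5656 genes had one), 8 in rps18a (12.7%), 7 in rps0a (11.9%), 5 in rpl12a (8.56%), 5 in rps18b (11.3%), 0 in rpl22b (3.75%) and 0 in rpl7b (1.84%), so that these counts were near or under the shares over all genes. The 27 calls of the list against wild type became 0 when each fit held only the arrays of the strains compared.

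By role, calls were found in rpl14a in every list except the MAP kinase cascade. Of 12 genes for pheromone and receptor functions, 4 fell in rpl14a. BAR1, the secreted protease that degrades α-factor, had 149.8 and 123 in rpl14a against 938 and 1054 in wild type (-2.87 ± 0.15, adjusted p = 8.87e-08). MFA1 and MFA2 encode a-factor, and they fell by 2.34 (SE 0.31, adjusted p = 0.00101) and by 1.08 (SE 0.16, adjusted p = 0.00207). STE2, the α-factor receptor, had 227 and 254 in rpl14a against 489 and 562 in wild type (-1.13 ± 0.16, adjusted p = 0.00169).

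Of 6 genes for the G protein and its regulators, 2 fell in rpl14a. SST2 encodes the GTPase activator that desensitises the pathway and had 107 and 86.5 in rpl14a against 279 and 279 in wild type (-1.53 ± 0.24, adjusted p = 0.00257). ASG7, an a-specific gene whose product acts on the Gβ subunit, was not well above background in rpl14a and fell at least 5.21-fold (adjusted p = 0.00417).

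None of the 10 genes of the MAP kinase cascade, each by its brightest probe set, was called in rpl14a or in rpl7a. Of them 1 and 0 had an unadjusted p under 0.05, where 17% and 21.2% of all genes did. The second FUS3 probe set, not counted here, had an unadjusted limma p of 0.0295 in rpl7a (-0.93 ± 0.38, adjusted p = 0.193). Among 6 transcription factor genes the only call in rpl14a was TEC1, which encodes the partner of Ste12 in filamentous growth, with 139 and 122 in rpl14a against 560.2 and 528 in wild type (-2.06 ± 0.27, adjusted p = 0.000964). FAR1 was the only call among 8 genes of arrest and polarity. Of 22 genes of agglutination, fusion and karyogamy, 6 fell in rpl14a: AGA1, FUS1, PRM1 and FIG1, together with AGA2, the binding subunit of a-agglutinin (61.1 and 44.0 in rpl14a against 403 and 452 in wild type, -3.04 ± 0.21, adjusted p = 2.33e-06), and FIG2, a wall adhesin of mating cells (-1.60 ± 0.28, adjusted p = 0.00558, and 0.0665 without wild-type replicate 1 or 0.0506 without rpl14a replicate 2).

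In rpl7a the genes outside the 10 that fell were BAR1 (-1.29 ± 0.15, adjusted p = 0.000340), STE23, a protease of a-factor maturation (-1.03 ± 0.26, adjusted p = 0.0287), SST2 (-1.48 ± 0.24, adjusted p = 0.00222), AGA2 (-1.38 ± 0.21, adjusted p = 0.00182) and FIG2 (-1.20 ± 0.28, adjusted p = 0.0179). SST2 had 97.0 and 103 in rpl7a, beside 107 and 86.5 in rpl14a. A pair of genes was called higher in rpl7a, where 3.58% of all probe sets were: AXL1, another protease of a-factor maturation (1.08 ± 0.21, adjusted p = 0.00625), and KAR3, a kinesin of nuclear fusion (1.59 ± 0.28, adjusted p = 0.00389). In rpl22a, BAR1 was lower (-0.69 ± 0.15, adjusted p = 0.0331). Several of these calls were lost on leaving out 1 array: that of STE23 in 6 of 33 alternative settings (without either wild-type array or rpl7a replicate 2, adjusted p between 0.103 and 0.245), that of FIG2 in 5 (without any 1 of the rpl7a and wild-type arrays, 0.0586 to 0.134), that of AXL1 in 3 (without rpl7a replicate 1, 0.0644) and that of BAR1 in rpl22a in 7 (without either wild-type array or rpl22a replicate 2, 0.102 to 0.226).

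**Figure D3:**
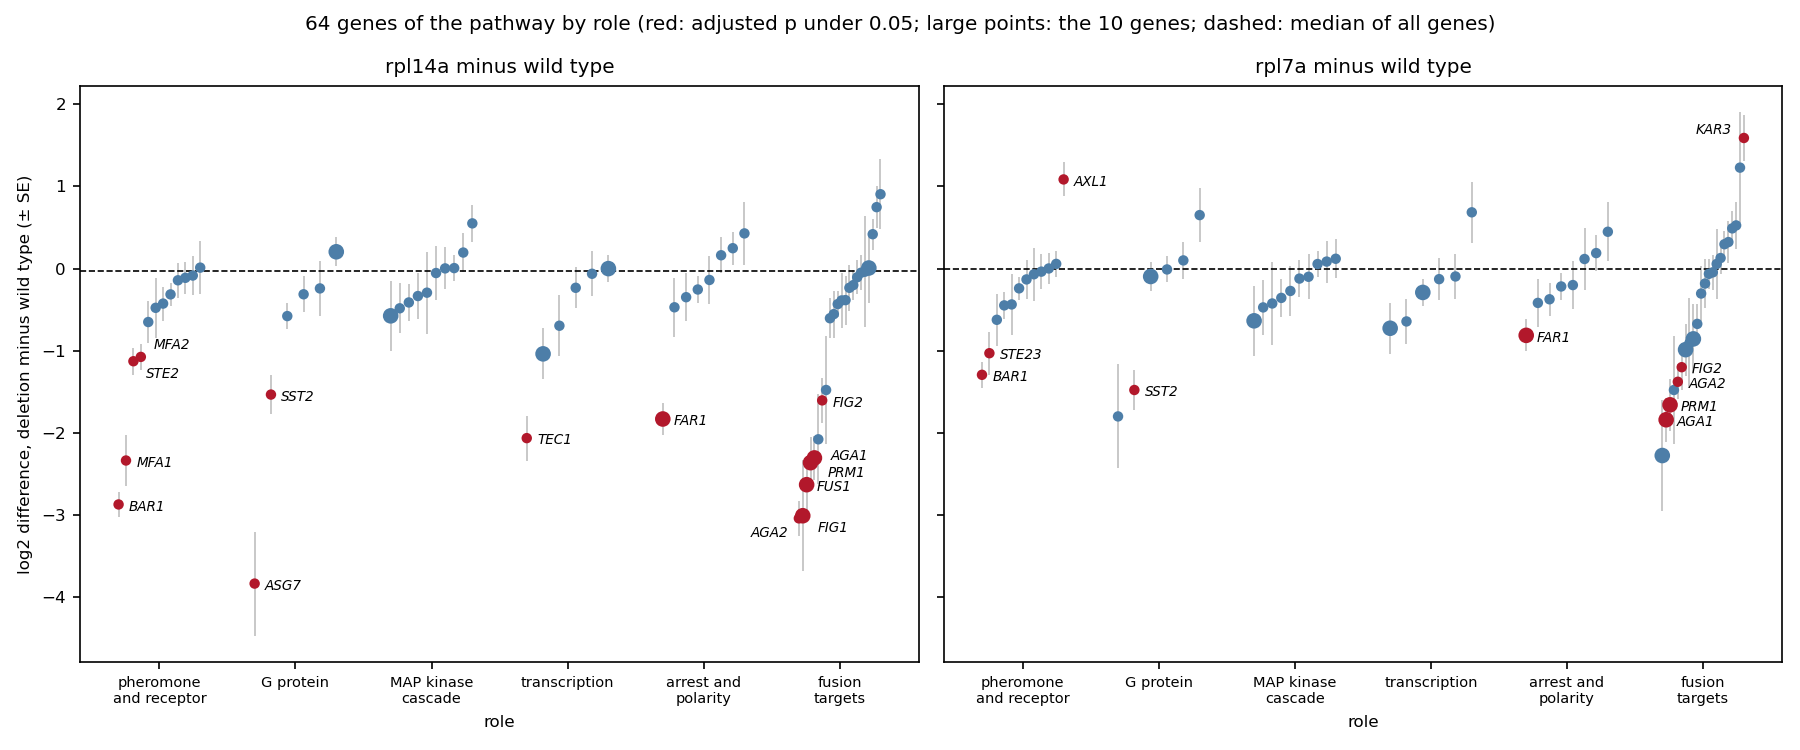
Log2 difference from wild type (vertical axis, deletion minus wild type, bars ± SE) of 64 pathway genes grouped by role, in rpl14a on the left and rpl7a on the right. Red points were called, large points are the 10 genes, each by its brightest probe set, and the dashed line is the median of 5656 genes. The MAP kinase column holds no red point in either panel, and all 14 red points in rpl14a lie below the line.

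Over the wider list 9 of 64 genes were called lower in rpl7a than in rpl7b, where 1.4% of all genes were, and 2 higher. Among them were BAR1 at -1.34 ± 0.15 (adjusted p = 0.000274) and KAR3 at 1.45 ± 0.28 (adjusted p = 0.00808), where 3.01% of all probe sets were called higher. The call of KAR3 was lost without rpl7a replicate 1 or either rpl7b array (adjusted p between 0.0551 and 0.0780). Between rpl12a and rpl12b, MFA1 had 7499 and 7553 in rpl12a against 3214 and 2311 in rpl12b, and the difference of 1.47 ± 0.31 was called (adjusted p = 0.0304). MFA2 was higher in rpl12a as well (0.91 ± 0.16, adjusted p = 0.00996), where 0.55% of all probe sets were called higher. Both calls were lost without either rpl12a array or without rpl12b replicate 2 (adjusted p between 0.131 and 0.218 for MFA1 and between 0.0530 and 0.0882 for MFA2).

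Several strains with lower values carried a chromosome whose genes were raised as a whole, and some pathway genes lie on it. In rpl14a the median difference of 237 genes of chromosome VIII above background was 0.79. STE12 at -0.00067 and GPA1 at 0.20 lie on that chromosome, and 16 (6.75%) and 25 (10.5%) of the 237 genes were at or below them. STE20, the kinase above the cascade, was at 0.55 with 28.7% at or below it. The genes that fell in rpl14a lie on other chromosomes. In rpl7a chromosome XVI had a median of 0.96 over 415 genes, and AXL1 and KAR3, the genes that rose, both lie on it, with 64.8% and 93.7% of its genes at or below them. DIG1, which encodes an inhibitor of Ste12, is on the same chromosome and was at 0.68 ± 0.37 (adjusted p = 0.350), with 26.7% at or below it. PRM3, which encodes a protein of nuclear fusion, was at 1.23 ± 0.68 (adjusted p = 0.353, 75.4% at or below), and PRM4, a pheromone-regulated gene, at 0.53 ± 0.29 (adjusted p = 0.348, 17.1%). In rpl12b chromosome V had a median of 0.95 over 240 genes, with PTP3, a phosphatase that acts on Fus3, at 0.66 ± 0.33 (adjusted p = 0.497, 17.5% of its genes at or below) and PEA2, which encodes a component of the polarisome, at 1.18 ± 0.36 (adjusted p = 0.140, 77.5%). The part of the raised chromosomes in these differences was not tested.

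**Figure D4:**
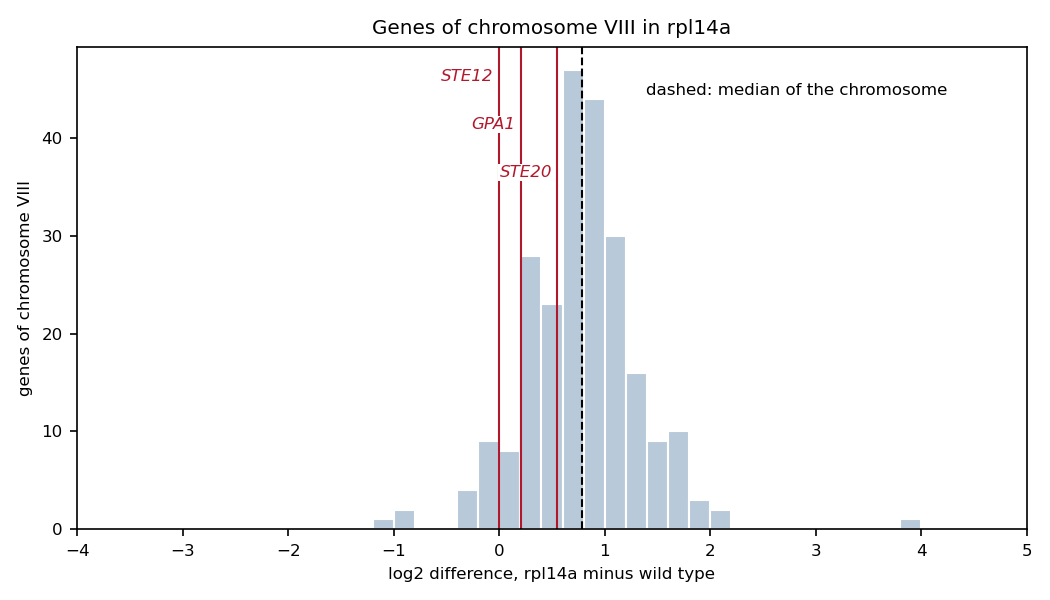
Histogram of the log2 difference (horizontal axis, rpl14a minus wild type) over 237 genes of chromosome VIII above background, with the number of genes on the vertical axis. Red lines mark STE12 at -0.00067, GPA1 at 0.20 and STE20 at 0.55, all left of the dashed median of the chromosome at 0.79.

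Markers of mating type were compared because the genes depend on it. The summed signal of 7 genes specific to a cells was 3388 to 3815 in rpl14a, 8287 to 9274 in rpl7a and 6679 to 17657 in the other 9 deletions, against 10934 to 11954 in wild type. MFA1 and MFA2 made up most of this sum, with 5501 and 4277 in wild-type replicate 1. In rpl7a, BAR1 and AGA2 were called lower, while MFA2 was at 0.06 (limma adjusted p = 0.927). In rpl14a 6 of the 7 were above background, ASG7 being the exception, and all 7 were in each other strain. The summed signal of 4 genes specific to α cells was 127 to 167 in rpl14a, 115 to 161 in rpl7a and 119 to 191 in the other 9 deletions, against 144 to 149.6 in wild type, with 4 of 4 above background in rpl14a, in rpl7a and in wild type and 3 of 4 in rpl12a and rpl12b. For 10 genes of haploid cells of either type, some of them also among the genes described here, the sum was 1025 to 1078 in rpl14a, 1363 to 1417 in rpl7a and 1437 to 1793 in the other 9 deletions, against 1612 to 1695 in wild type. A large part of the fall in rpl14a was FAR1 itself (113 and 127 against 474 and 385). The other genes of this sum were lower in signal there too, except RME1, which overlapped wild type, and GPA1, which was above it. In rpl7a the sum includes AXL1, which lies on the raised chromosome XVI. None of these markers was deposited at 0 on any array. In RNA of whole cultures, fewer cells that express a gene and less of its RNA per cell cannot be told apart. RNA integrity, read as the ratio of the 3′ to the 5′ probe set of ACT1, was 1.93 and 2.03 in rpl14a and 2.16 and 2.04 in rpl7a, against 2.19 and 2.05 in wild type.

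The 10 genes did not vary as a single group over the strains. Over the 12 strain means, and as a description, each gene was set against the mean profile of the 9 genes above background in every strain, a profile that contains the gene itself for all but FIG1. The correlation was 0.96 for AGA1 and for PRM1, 0.93 for FAR1, 0.91 for FUS1, 0.86 for KAR4, 0.84 for FUS3, 0.67 for FIG1, 0.57 for STE12, 0.47 for FUS2 and -0.01 for GPA1. Without rpl14a and rpl7a it was 0.93 for AGA1, 0.85 for PRM1, 0.85 for FIG1, 0.76 for FAR1, 0.75 for FUS1, 0.73 for FUS2, 0.43 for FUS3, 0.24 for STE12, 0.18 for KAR4 and -0.37 for GPA1, so that the values of KAR4, FUS3 and STE12 rested largely on these strains. AGA1 and PRM1 followed each other (Pearson r = 0.96, Spearman rho = 0.89), and r was 0.88 without rpl14a and rpl7a, the strains farthest from the median. AGA1 and FIG1 were at 0.82 (rho 0.78), and at 0.92 without these strains. FUS1 and FAR1 were at 0.94 (rho 0.65) and at 0.46 without them, so that relation rested on rpl14a and rpl7a. AGA1 and STE12 were at 0.45 (rho 0.24), with a value of 0.0056 without them. FIG1 was above background in only 6 of the 12 strains. Its values in the others have no certain order among themselves, which limits each of its correlations given here. All strain means of a strain come from the same 2 arrays.

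The 8 genes outside the 10 whose strain means were most like that profile were BAR1 (r = 0.96, 0.91 without rpl14a and rpl7a), NIS1 (0.94, 0.92), FIG2 (0.92, 0.68), CDS1 (0.91, 0.69), AGA2 (0.90, 0.49), ASG7 (0.90, 0.75), SNF1 (0.90, 0.65) and MVB12 (0.90, 0.43), each over 12 strains. BAR1, FIG2, AGA2 and ASG7 belong to the pathway list. NIS1, CDS1, SNF1 and MVB12 moved little, with standard deviations over the strain means between 0.13 and 0.25 on the log2 scale, and none of these 4 was called in any comparison with wild type. NIS1, whose product sits at the bud neck, had 170.1 and 116 in rpl14a and 213 and 153 in rpl7a, against 262 and 229 in wild type.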

How the data were processed

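RNA was measured on 24 arrays of 12 strains, 2 biological replicates each. Per the labels' protocols, hot phenol was used for extraction, and an oligo-dT primer and in vitro transcription gave biotinylated cRNA. The authors deposited a linear intensity for each probe set and array; the labels do not say how probes were summarised or arrays scaled. Intensities under 3.6, which is the 10th percentile (9.89% of values), were raised to it, log2 values were quantile normalized over 9335 probe sets, and 60 controls were then set aside. An array's background was the 95th percentile of 19 foreign-sequence controls, and a probe set above it on neither array of a strain has a bound. Gene names come from the platform annotation, updated to RefSeq R64: 6504 probe sets carry 1 name, 328 several and 2443 none. Chromosomes were read from systematic names.

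Differences were tested with limma 3.58.1 (R 4.3.3 and the data.table package, version 1.17.8) in 1 fit of 12 strain means with 12 residual degrees of freedom, with Benjamini-Hochberg adjustment over 9275 probe sets of each comparison, two-sided, at 0.05. The fit was tested on simulated data. Large against small subunit deletions used 11 strain means. The members, gene lists and tests were chosen with earlier results of these data known. Named genes are the 10 members, up to 4 called genes per role with the largest differences, pathway genes on raised chromosomes, and the 8 genes most like the members' mean profile. A gene with several probe sets is shown in lists by the brightest. Precision is limited by 2 arrays per strain. Other normalizations, floors, filters, variance models, sample sets, a replicate block and leaving out each array were tried.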

Additional observations from a re-analysis of the deposited data

Results flagged for a closer look

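These results are differences between deletions of the 2 copies of a gene, A copy minus B copy, that passed limma's test of the difference itself; with 2 arrays per strain no test for a single outlying array could be made. In rpl7a against rpl7b, AGA1 was at -1.88, PRM1 at -1.85, FAR1 at -0.77 and FIG1 at least 3.97-fold lower in rpl7a. In the same pair AGA2 was at -1.46, BAR1 at -1.34, FIG2 at -1.31, SST2 at -1.30 and STE23 at -0.97, and that of STE23 was lost in 17 of 33 alternative settings. Leaving out 1 of the 4 arrays of this pair also ended the calls of FIG2 (any of the 4, adjusted p between 0.0519 and 0.131) and of SST2 (rpl7b replicate 1, 0.0814). AXL1 at 0.83 and KAR3 at 1.45 were higher in rpl7a, and both lie on chromosome XVI, which had a median of 0.96 in rpl7a against wild type. The call of AXL1 was lost without either rpl7a array or rpl7b replicate 1 (between 0.0743 and 0.321). In rpl22a against rpl22b, FIG1 was at least 4.48-fold lower in rpl22a and BAR1 was at -0.88 (adjusted p = 0.0799 without rpl22a replicate 2). In rpl12a against rpl12b, MFA1 was at 1.47 and MFA2 at 0.91, both higher in rpl12a.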

How the results depend on the processing

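Calls among the 10 genes against wild type numbered 10 and were 16 with median centring, 0 with only the arrays of the strains compared, and 6 to 15 leaving out single arrays, 6 without wild type replicate 1. The F test called 5 probe sets and 5 to 6 leaving out single arrays. Calls between paralog deletions numbered 5 and were 3 without normalization between arrays, 3 with a floor at the 25th percentile, 3 with the dimmest 25% of probe sets left out, 3 without probe sets of chromosomes XVI, V and VIII, 0 with only the arrays compared, and 2 to 7 leaving out single arrays. Large against small subunit deletions gave 0 calls throughout (0 to 0). Pathway calls numbered 27, were 0 with only the arrays compared and 19 to 33 leaving out single arrays. A fit of 2 strains has few degrees of freedom by construction; the cause of the other shifts was not tested. The replicate number as a block (replicate block) gave 17 calls against wild type, 6 in the F test, 7 between paralogs, 0 between subunits and 36 in the pathway, and the labels tie the numbers to no shared culture day or batch. Deviations of same-numbered arrays correlated at -0.015 to 0.19 over 66 pairs of strains (median 0.064), with 19 of the 66 above 0.1. The numbers were not taken to pair the arrays, and a shared batch behind single probe sets was not tested. Some probe sets did go with the number. Replicate 1 was above replicate 2 in 11 of 12 strains for the 2 brighter FUS3 probe sets, and in 9 for STE12 and FUS1. Leaving out rps0a replicate 1 or rps0a replicate 2 gave equal numbers of calls against wild type, more than with all arrays. No difference that was called, in the main fit or in the alternative, reversed. Differences of the 10 genes that were called in neither changed sign by at least 1 SE in 51 cases. Low signal limits FIG1 and the dim FUS3 probe set.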

Other observations

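Probe sets named for YGR109W-B, the polyprotein gene of the Ty3 retrotransposon, were looked at after their values had been seen; Ty3 is known as an element that pheromone induces in haploid cells. Of its 23 probe sets, 17 were lower in rpl14a (1.46% of all probe sets were), 3 in rpl7a (2.99%) and 2 in rps18a (0.442%) relative to wild type, and none was called higher in any deletion. The differences ran between -2.56 and 0.04 in rpl14a and between -2.62 and -0.0031 in rpl7a. Between rpl7a and rpl7b, 8 of the 23 were lower in rpl7a (2.34% of all probe sets), and between rpl22a and rpl22b 1 was lower in rpl22a (1.09%). Ty3 is a family of near-identical copies, so the probe sets may share targets and are not independent of each other.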
